A study of Mus musculus with 2 samples.

Results

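The genes described here are 6 chemokines, *Cxcl12*, *Cxcl14*, *Cxcl1*, *Ccl2*, *Ccl7* and *Ccl11*, and the 2 receptors that bind Cxcl12, *Cxcr4* and *Ackr3*, in the developing coronal suture of the mouse. They were chosen by gene symbol and make up 8 of the 27514 genes present in both gene lists of the study, which name 31053 genes for embryonic day E15.5 and 27998 for E17.5. Their UMIs (unique molecular identifiers, the counted RNA molecules) were summed over each cell cluster of the authors' table and each library, and the filtered cells without a cluster label formed one reference group, called unlabelled cells.

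Chemokines are small secreted proteins that bind matrix and G protein-coupled receptors and set where cells move and stay. Cxcl12 made by stromal cells holds blood progenitors in bone marrow and guides migrating progenitors through Cxcr4, while Ackr3, an atypical receptor, binds Cxcl12, recruits arrestin and takes the ligand into the cell. Inflammatory chemokines such as Cxcl1, Ccl2 and Ccl7 are switched on within a short time by NF-kB and recruit neutrophils or monocytes.

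The study profiled dissected coronal sutures of wildtype C57/BL6 embryos with droplet single-cell RNA sequencing (10x Genomics 3′ chemistry) to resolve the cell types of this joint between the frontal and parietal bones. At E15.5, 10 sutures were pooled, dissociated with collagenase II and dispase and freed of dead cells. At E17.5, sutures came in 3 batches, 10 from one litter and 3 in each of the other batches from another, and were dissociated with collagenase IV and sorted. Stage, enzyme, sorting, embryos and the software version that made the counts differed together, so their effects cannot be told apart.

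The data are 1 count matrix per stage, called a library here, and that of E17.5 pools the separately made libraries of the 3 batches. With E15.5 processed once and the E17.5 cells not assigned to batches, no value has a replicate error and no test between stages was possible. The E15.5 library held 5335 labelled cells with 48607817 UMIs (median 8510 per cell) and 2875 unlabelled cells with 31162935 UMIs (median 9773). The E17.5 library held 6830 labelled cells with 92585034 UMIs (median 12301) and 1937 unlabelled cells with 28422888 UMIs (median 10594). Levels are given as CPM, the UMIs of a gene per 1000000 UMIs of the same cells, with exact Poisson 95% intervals in parentheses, and shares of cells have exact Clopper-Pearson 95% intervals; both cover counting error only. CPM were compared within a gene and not between genes. In the 15 labelled clusters, EC1 to EC4 are ectocranial layers above the suture, LIG is ligament-like, MG1 to MG4 are meningeal, OG1 to OG4 run from osteogenic progenitors to mature osteoblasts, and PO1 and PO2 are proliferating osteogenic cells. The label OG4 was checked by its marker: the mature osteoblast gene *Ifitm5* stood at 3263 CPM in OG4 at E15.5 and at 3238 CPM at E17.5. The 6 osteoblast markers, *Ifitm5* among them, summed there to 46967 and 17520 CPM. At E15.5 their sum was 716 CPM in OG3, 139 in OG2, 135 in OG1, 76.4 in PO1 and 74.4 in PO2. EC1 had 79.3 CPM and MG2 134, so these markers set only OG3 and OG4 apart at E15.5. At E17.5 OG2 had 512 CPM, PO1 746 and PO2 419, against 368 in EC1. The E15.5 counts give none of the cell totals in the authors' table (median 11507 there), so the E15.5 levels join labels and counts of different totals. The libraries shared 190 barcodes of 15384 and 9283 different ones, and the 3 suffixes found on E17.5 barcodes shared 10, 10 and 23. The labels do not assign these suffixes to the batches of embryos, and they were read as a spread and not as replicates.

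The labelled cells are those that the authors placed in mesenchymal and osteogenic clusters, and the ligands differed in their shares outside these labels. Unlabelled cells also held 199 fibroblast-like cells at E15.5. At E17.5 they held an unnamed cluster of 241 cells whose best marker list was the osteoblast one. A share in unlabelled cells is therefore not a share outside mesenchyme. Of all filtered *Cxcl12* UMIs, 11.9% at E15.5 and 12.3% at E17.5 lay in unlabelled cells, and for *Cxcl14* 8.3% and 8.75%. For *Ccl11* these shares were 23.6% and 40.9%. They passed 50% for the other ligands: *Cxcl1* had 53.5% and 66.2% of its UMIs in unlabelled cells, *Ccl7* 56% and 67.6%, and *Ccl2* 88.8% and 85.6%.

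The first comparison asked which cluster holds each gene above the other labelled cells. A gene and cluster pair was counted when its CPM reached 2 times the level in the rest of the labelled cells, in both libraries. All 8 genes had the 50 UMIs in labelled cells of each library required for this, and 7 of their 120 pairs (5.83%) were counted, against 1.88% of the 182250 pairs of all 12150 genes tested. These 7 pairs lay in 6 of the genes: *Cxcl12* in MG1, *Cxcl14* in EC4 and in LIG, *Cxcl1* in EC3, and *Ccl7*, *Ccl11* and *Ackr3* in EC2. *Ccl2* and *Cxcr4* had none. Without the cells of high doublet score 8 pairs were counted, the same 7 and *Cxcl12* in MG4.

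*Cxcl12*, the ligand of both receptors (ENSMUSG00000061353, chromosome 6, 117168535 to 117181367, plus strand, GRCm38 with GENCODE vM21, as for all positions here), was highest in the meninges. At E15.5 it stood at 386 CPM (314 to 469) in MG1, 278 (240 to 322) in MG4, 201 (182 to 222) in MG3 and 160 (146 to 175) in MG2. The ectocranial clusters had 232 CPM (223 to 241) in EC3, 134 in EC1, 132 in EC2 and 124 in EC4, and the ligament-like cells 88 (79 to 97.7). In clusters labelled osteogenic or proliferating the level was 161 CPM in PO2, 131 in OG2, 125 in PO1, 98.9 in OG3, 66 in OG1 and 16 (10.7 to 23) in OG4. The intervals of neighbours in this order overlapped except below EC3, below LIG and below OG1, so that MG1, MG4 and EC3 form an upper group and mature osteoblasts stand apart at the bottom.

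At E17.5 the order of the meningeal clusters was another one. MG4 had 757 CPM of *Cxcl12* (719 to 797), MG3 391 (364 to 419), MG1 258 (244 to 271) and MG2 213 (200 to 226), with EC3 at 262 (239 to 285). The step below each of MG4, MG3, MG1 and MG2 exceeded the intervals, and only EC3 and MG1 overlapped among these. Below them came EC2 at 93.1 CPM (86.5 to 100), EC4 at 56.8, EC1 at 53.8, OG3 at 49.1 and OG1 at 42.2 (38.6 to 46.1). LIG at 20.9 CPM, OG2 at 19.2, PO1 at 16.6, OG4 at 14 and PO2 at 11.1 (6.59 to 17.6) formed a low group whose neighbours overlapped. Meninges and EC3 thus stood above every other cluster at this stage.

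Against all other labelled cells, MG1 had 2.59 times (2.11 to 3.16) and 3.36 times (3.17 to 3.56) the *Cxcl12* level at E15.5 and E17.5. The E15.5 value rests on 28 cells, and the pair was no longer counted when clusters under 50 cells were left out or when MG1 was set against the mean of the other clusters. MG4 passed the limit at E17.5, at 10.3 times (9.73 to 10.9), and stayed under it at E15.5, at 1.88 times (1.61 to 2.17). EC3 had 1.83 and 3.13 times the level of the other cells. MG1 had no cells in suffix 1, so the pair was lost there too. By suffix the E17.5 level of MG4 was 852, 772 and 734 CPM, the first of these from 7 cells.

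*Cxcl14*, a ligand abundant in skin and other barrier tissues that attracts monocytes and dendritic cell precursors (ENSMUSG00000021508, chromosome 13, 56288643 to 56296551, minus strand), had its peak in the ectocranial cluster EC4. EC4 stood at 1426 CPM (1389 to 1463) at E15.5 and at 1541 (1505 to 1578) at E17.5. LIG followed with 1099 CPM (1067 to 1132) at E15.5 and 499 (484 to 513) at E17.5. In both libraries the steps below EC4 and below LIG exceeded the intervals, so these clusters ranked first and second at both stages. EC4 had 5.48 times the *Cxcl14* level of the remaining labelled cells at E15.5 and 11 times at E17.5. For LIG this was 3.76 and 2.83 times.

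Below these at E15.5 came clusters labelled proliferating or early osteogenic, which the sum of the osteoblast markers, mostly *Ibsp*, did not set apart at that stage. *Cxcl14* had 741 CPM (667 to 822) in PO2, 609 (585 to 633) in OG2, 454 (425 to 484) in PO1 and 253 (231 to 277) in OG1. MG1 had 336 CPM (269 to 414) and was the only one of this range to overlap a neighbour, OG1. A lower group of overlapping neighbours held EC1 at 120 CPM, EC3 at 116, OG3 at 112 and MG2 at 97, and beneath it lay EC2 at 68.3, MG3 at 54.9, MG4 at 36.1 and OG4 at 18.8 (13 to 26.3). At E17.5 the osteogenic levels were lower and closer together: OG1 had 141 CPM (134 to 148), PO2 127 (110 to 145), OG2 105 (97.5 to 112), PO1 88.2 (81.5 to 95.3) and OG3 80.4 (75.6 to 85.5). The meninges had 261 CPM (248 to 275) in MG1, 153 in MG2, 63.7 in MG3 and 36.3 in MG4, the ectocranial clusters 123 in EC3, 104 in EC1 and 37.9 in EC2, and OG4 16.9 (14.5 to 19.5). From MG2 through MG3 to MG4 *Cxcl14* therefore fell where *Cxcl12* rose at E17.5, while MG1 was above MG2 in both ligands.

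*Cxcl1*, a neutrophil attractant that acts through Cxcr2 (ENSMUSG00000029380, chromosome 5, 90891241 to 90893115, plus strand), was highest among labelled clusters in the dermis-like ectocranial ones. At E15.5 EC3 had 74.8 CPM (69.7 to 80.1), above EC1 at 60.1 (51.8 to 69.5) and EC2 at 59.5 (54.6 to 64.7), which overlapped each other. The step below EC2 exceeded the intervals, and OG3 followed at 37.1 CPM (27.4 to 49.2). All neighbours from there on overlapped: MG1 at 26.7, OG2 at 24.6, EC4 at 18.6, PO1 at 18.1, LIG at 17, MG2 at 16.5, PO2 at 12.4, MG4 at 12, OG1 at 7.8, MG3 at 5.09 and OG4 at 4.97 (2.27 to 9.44). At E17.5 EC2 at 23.7 CPM (20.4 to 27.3) and EC3 at 23.4 (17.1 to 31.2) overlapped at the top, and EC1 had moved down to 9.09 (5.77 to 13.6). The other clusters lay between 4.21 CPM in MG4 and 12.9 in MG1 with every pair of neighbours overlapping, among them OG3 at 11.4, MG2 at 10.5, PO2 at 9.26, LIG at 7.93, EC4 at 7.12, OG2 at 6.94, OG4 at 6.57, MG3 at 5.39, PO1 at 4.95 and OG1 at 4.6. EC3 had 2.43 times (2.22 to 2.66) the *Cxcl1* level of the remaining labelled cells at E15.5 and 2.54 times (1.84 to 3.42) at E17.5, where suffix 1 alone gave 1.76 times from 35 cells.

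*Ccl2*, *Ccl7* and *Ccl11* are neighbours on chromosome 11 and all on the plus strand. *Ccl2* (ENSMUSG00000035385) spans 82035571 to 82037453, *Ccl7* (ENSMUSG00000035373) begins 8258 bases further and spans 82045712 to 82047525, and *Ccl11* (ENSMUSG00000020676) begins 10297 bases after that and spans 82057823 to 82062955. Together they take up 27385 bases.

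*Ccl2*, the main monocyte attractant, acts through Ccr2 and was low in labelled cells. At E15.5 OG3, a cluster of differentiating osteoblasts, had 27.8 CPM (19.5 to 38.5), 4.67 times (3.2 to 6.62) the level of the other labelled cells, and the step below it exceeded the intervals. All others overlapped in order from 11.3 CPM in PO1 through 10.5 in OG2, 8.45 in EC1, 7.77 in LIG, 7.64 in MG1, 6.2 in PO2, 6.11 in EC4, 6.02 in MG4, 5.59 in MG3, 5.32 in EC2, 4.2 in EC3, 4.16 in OG1 and 3.03 in MG2 to 1.66 in OG4. At E17.5 OG3 was again first, at 21.5 CPM (19 to 24.2), but overlapped EC2 at 17.9 (15 to 21.1), and its ratio to the other labelled cells was 1.9 (1.65 to 2.17). The rest ran without a break from 15.7 CPM in PO1 to 7.11 in EC3: MG3 12.7, EC1 12.3, PO2 11.7, MG1 11.1, MG4 11.1, OG1 10.7, LIG 10.3, EC4 10.2, OG2 9.46, OG4 8.76 and MG2 8.26. By suffix OG3 had 33.5, 13.7 and 21.8 CPM and led only in suffix 3, with PO1 first in suffix 1 at 34.4 and EC2 in suffix 2 at 23.4, so its first place at E17.5 is not firm.

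*Ccl7*, a monocyte attractant that also uses Ccr2, shared OG3 with *Ccl2* and EC2 with *Ccl11*. OG3 led at E15.5 with 58.7 CPM (46.3 to 73.5), 2.95 times the other labelled cells, above EC2 at 37.8 (33.9 to 42). EC2 led at E17.5 with 61.9 CPM (56.5 to 67.6), above OG3 at 37.9 (34.6 to 41.4), which was 1.73 times the other labelled cells. Each leader was set off from the next cluster by more than the intervals, and every later neighbour overlapped. The remaining E15.5 levels were 22.9 CPM in MG1, 19.1 in EC4, 18.3 in EC3, 17.9 in EC1, 16.6 in OG2, 14.7 in PO1, 14 in LIG, 13.2 in MG3, 8.26 in PO2, 6.63 in OG4, 6.24 in OG1 and 6.02 in MG4, with MG2 between OG2 and PO1. Those at E17.5 were 29.3 CPM in EC1, 25.8 in LIG, 22.1 in PO1, 21.8 in MG1, 21.4 in EC4, 21.1 in MG4, 18.2 in MG2, 16.7 in MG3, 16.2 in EC3, 13.9 in OG1, 12.2 in OG2, 9.88 in PO2 and 8.86 in OG4. EC2 was the one cluster past the limit in both libraries, at 2.23 times (1.95 to 2.54) and 3.01 times (2.71 to 3.32).

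*Ccl11*, or eotaxin, attracts eosinophils through Ccr3 and was highest among labelled clusters in the hypodermis-like EC2. EC2 had 48.4 CPM (44 to 53.1) at E15.5 and 76.4 (70.4 to 82.7) at E17.5. The step below EC2 exceeded the intervals in both libraries. EC1 at 24.4 CPM (19.2 to 30.6) and EC3 at 16 (13.7 to 18.6) came next at E15.5, and EC3 at 27.4 (20.6 to 35.8) and EC1 at 19 (14 to 25.2), which overlapped, at E17.5. Outside these 3 layers the E15.5 levels fell through overlapping neighbours from 12.4 CPM in OG2, 10.8 in PO1, 10.3 in PO2 and 9.53 in EC4 to 6.96 in OG3, 6.77 in LIG, 4.07 in MG3, 3.12 in OG1, 3.01 in MG4, 1.35 in MG2 and 0.553 in OG4. At E17.5 they were 3.92 CPM in MG3 and 3.78 in EC4, and between 0.62 in MG2 and 1.45 in MG1 in the other clusters with a UMI. MG1 at E15.5 had 0 UMIs, which allows up to 11.5 CPM (3 counts), and PO2 at E17.5 had 0, which allows up to 1.85. EC2 stood at 4.53 times (3.96 to 5.19) the remaining labelled cells at E15.5 and 32.6 times (27.8 to 38.5) at E17.5, where its 3 suffixes gave 120, 60.5 and 57.1 CPM.

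**Figure D1:**
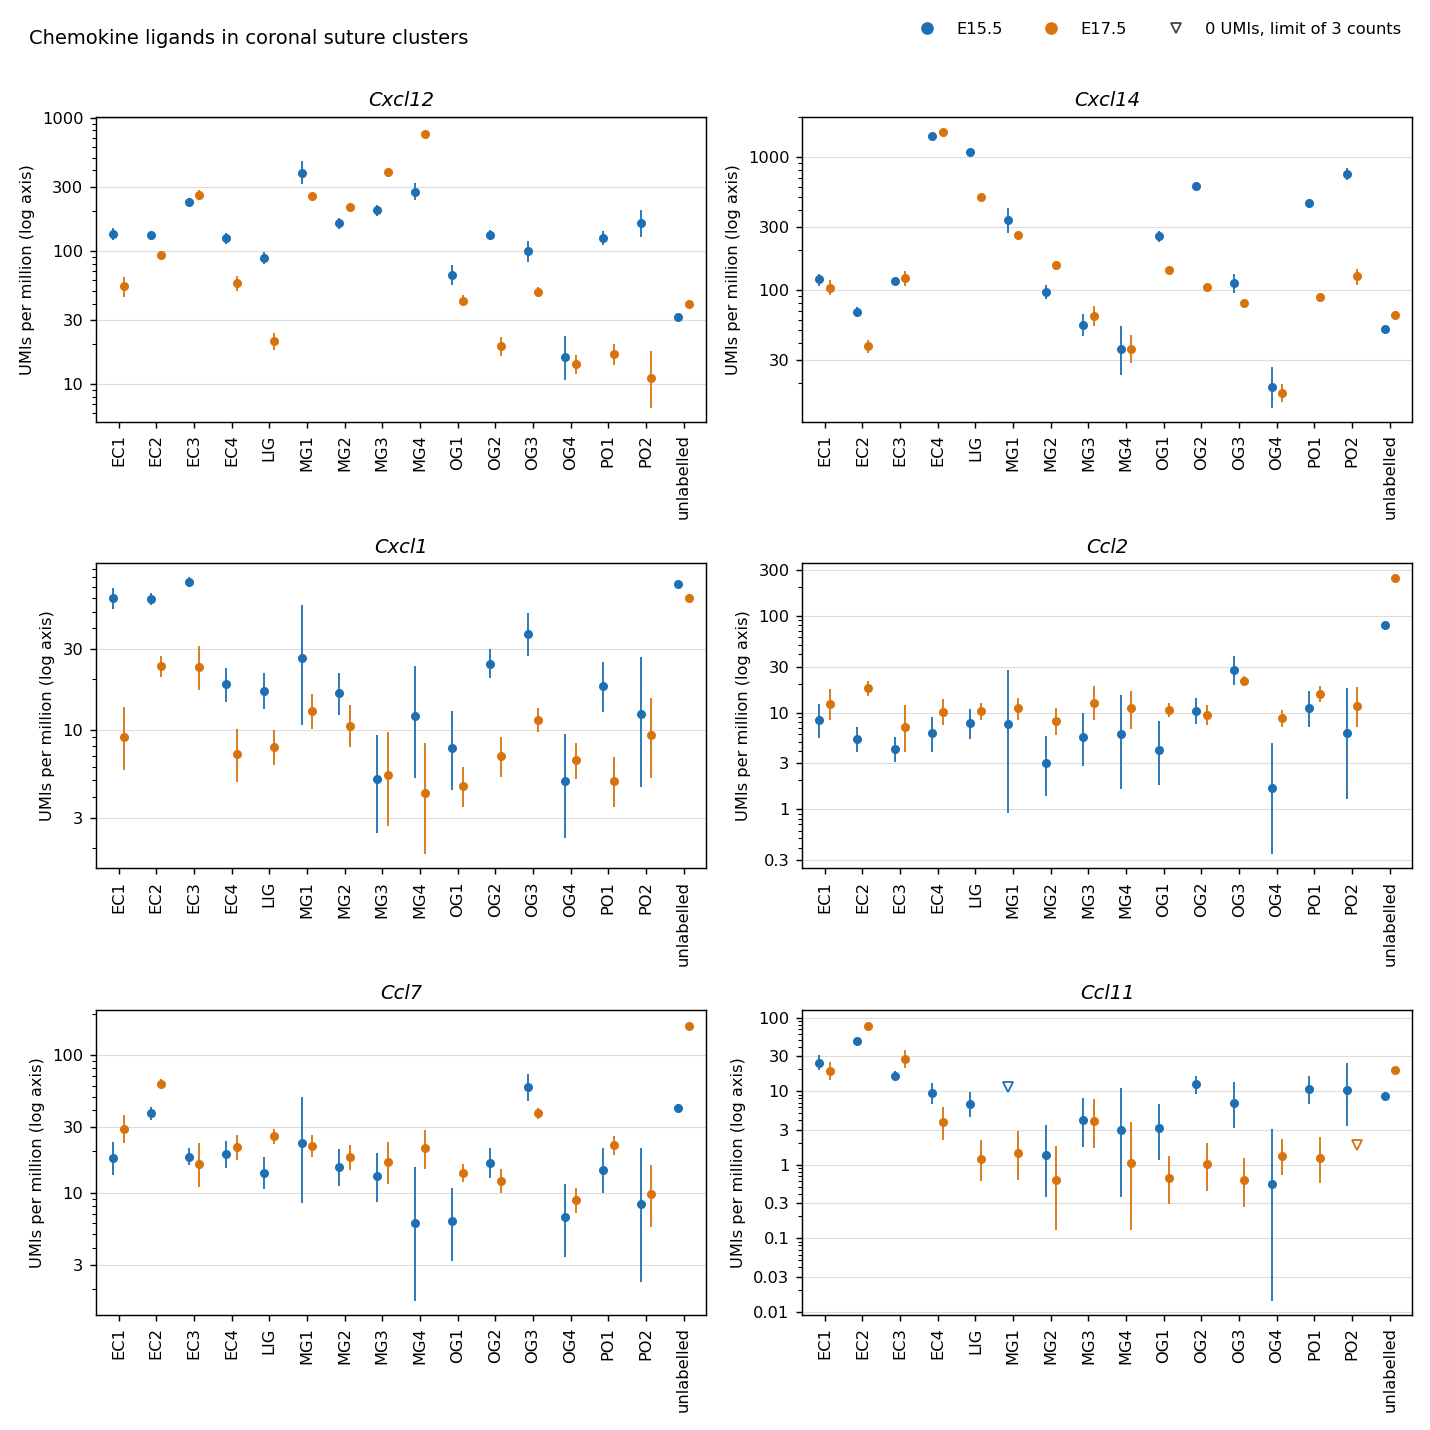
Levels of the 6 ligands in the 15 labelled clusters and in the unlabelled cells (horizontal axis), in UMIs per 1000000 UMIs on a log axis, with blue points for E15.5, orange points for E17.5, bars for exact Poisson 95% intervals and open triangles for 0 UMIs at the limit of 3 counts. *Cxcl12* peaks in MG1 at 386 CPM and in MG4 at 757 CPM, *Cxcl14* in EC4 at 1426 and 1541 CPM, and *Ccl2* in the unlabelled cells at 81 and 246 CPM.

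*Cxcr4*, the signalling receptor of Cxcl12 (ENSMUSG00000045382, chromosome 1, 128588199 to 128592293, minus strand), was close to the limit of detection in labelled cells. All labelled cells together held only 65 UMIs at E15.5 and 60 at E17.5, or 1.34 CPM (1.03 to 1.7) and 0.648 (0.495 to 0.834). EC2 held 20 and 24 of them, at 2.17 CPM (1.33 to 3.35) and 3.02 (1.93 to 4.49), which was 1.9 times (1.06 to 3.29) and 7.1 times (4.05 to 12.2) the other labelled cells. EC2 thus fell just short of the limit at E15.5.

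Above EC2 at E15.5 stood OG1 with 5.2 CPM of *Cxcr4* (2.49 to 9.56), from 10 UMIs, EC1 with 2.6 and PO1 with 2.45. All neighbours in the order overlapped at both stages, and only clusters far apart in it were separated, such as EC2 from OG1 (0.184 to 1.09) at E17.5. PO2 had 2.07 CPM, OG3 1.55, MG4 1.5, LIG 1, EC3 0.933, MG3 0.509, MG2 0.337, and EC4 and OG2 0.244 each, while MG1 and OG4 had 0 UMIs, which allows up to 11.5 and 1.66 CPM. At E17.5 MG3 had 1.96 CPM, EC3 1.52, EC4 1.11, MG2 0.826, PO1 0.688, PO2 0.617, OG1 0.502, EC1 0.395, OG2 0.252, OG3 0.233, LIG 0.109 and OG4 0.0953. MG1, as at E15.5, and MG4 had no UMI, with limits of 0.545 and 1.58 CPM. OG1 at E15.5 also carried RNA of other tissues: the summed level of the 6 muscle markers was 864 CPM there against 62.7 in all labelled cells, with *Actc1* the highest at 409 CPM and none of them at 0, and that of the 5 keratinocyte markers was 424 CPM against 28.1. The 7 granulocyte markers summed to 32.2 CPM in OG1 against 2.86 in all labelled cells, with *Ngp* the highest at 18.2. The part of granulocyte RNA in the *Cxcr4* level of OG1 was not tested. In a comparison chosen after these values were seen, the 242 OG1 cells with under 3 muscle UMIs, 15 in all, held all 10 *Cxcr4* UMIs, at 5.81 CPM (2.78 to 10.7). The 19 cells with more muscle RNA held 0, which allows up to 15 CPM and does not separate them from the others.

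*Ackr3*, the receptor that takes up Cxcl12 (ENSMUSG00000044337, chromosome 1, 90203980 to 90216751, plus strand), was highest in ectocranial clusters among labelled cells, though not in all of them. At E15.5 the order ran without a break through EC2 at 59.9 CPM (55 to 65.2), EC1 at 52.7 (44.9 to 61.4), EC3 at 43.9 (40 to 48.1), MG3 at 38.1, OG4 at 34.3 (26.3 to 43.9), EC4 at 29.8 (24.7 to 35.6) and LIG at 27.1. Lower levels were 22.9 CPM in MG1, 19.6 in MG4, 14.1 in MG2, 12.4 in OG2 and in PO2, 8.81 in PO1, 8.32 in OG1 and 3.09 (0.842 to 7.92) in OG3. At E17.5 EC4 at 82.1 CPM (74 to 90.9) and EC2 at 80.9 (74.8 to 87.4) overlapped at the top and stood above the rest. These were LIG at 48.9 CPM, EC3 at 43.7, MG3 at 42.1, MG4 at 37.9, EC1 at 31.2, OG4 at 22, OG3 at 21.7, PO2 at 18.5, MG2 at 15.9, OG2 at 12.5, PO1 at 12.4, OG1 at 8.45 and MG1 at 8.17 (5.96 to 10.9), each overlapping the next. EC2 passed the limit in both libraries, at 2.04 times (1.84 to 2.26) and 3.27 times (2.99 to 3.57). EC4 went from 0.836 times (0.69 to 1.01) the remaining labelled cells at E15.5 to 3.05 times (2.73 to 3.41) at E17.5. Among the osteogenic clusters, mature osteoblasts were first at both stages, and OG4 overlapped OG3 and PO2 at E17.5. By suffix OG4 had 42.7, 16.6 and 19.1 CPM and OG3 26.9, 21.8 and 18.2. In suffix 2 PO2, at 21.5 CPM, also stood above OG4, so its first place at E17.5 is not firm.

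**Figure D2:**
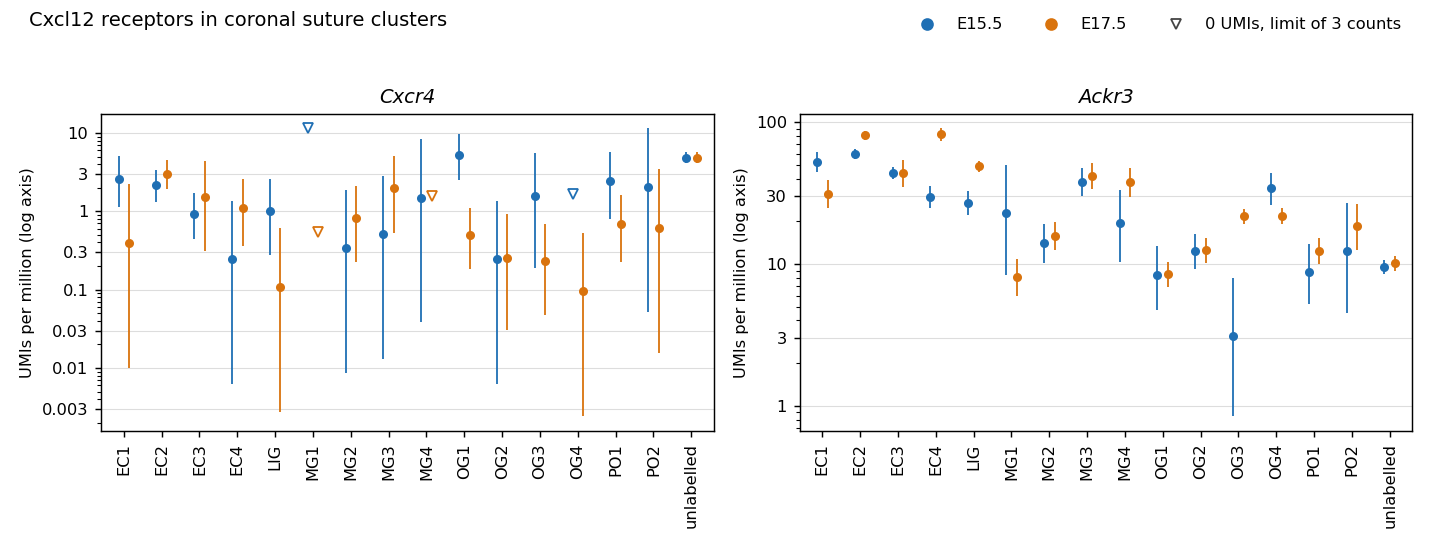
Levels of the receptors *Cxcr4* and *Ackr3* in the 15 labelled clusters and in the unlabelled cells (horizontal axis), in UMIs per 1000000 UMIs on a log axis, with colours, bars and triangles for E15.5 (blue), E17.5 (orange), exact Poisson 95% intervals and 0 UMIs at the limit of 3 counts. *Cxcr4* is at 4.85 and 4.86 CPM in unlabelled cells and has wide intervals in every cluster, and *Ackr3* is highest in EC2 at E15.5 (59.9 CPM) and in EC4 and EC2 at E17.5 (82.1 and 80.9 CPM).

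Shares of cells with a UMI depend on depth and on free RNA, so each is given as measured and with every cell thinned to 3000 UMIs, beside a cell type that should lack the gene. Osteoclast-like unlabelled cells, with median depths of 15790 and 19911 UMIs against 8510 and 12301 in labelled cells, served for *Cxcl12*, *Cxcl14* and *Cxcl1*. Any *Cxcl12* UMI was found in 53.6% of labelled cells (52.3 to 55) at E15.5 and in 39.3% (38.2 to 40.5) at E17.5, or 30.8% and 18.7% after thinning. The osteoclast-like cells had 12.2% and 12.4%, or 3.59% and 1.65% after thinning. For *Cxcl14* the labelled shares were 54.1% and 54.8%, thinned 36.7% and 28.1%, against 14.7% and 24.8%, thinned 2.56% and 8.26%, in osteoclast-like cells. *Cxcl1* was found in 16.5 to 18.6% (95% interval) and in 8.14% of labelled cells, against 9.14% and 10.7% of osteoclast-like cells. After thinning, *Cxcl1* shares were 7.96% and 2.25% in labelled cells against 3.08% and 2.48%, so the labelled share at E17.5 was at the level of background. Within clusters, *Cxcl1* at E17.5 stood at 4.44% in EC2 (2.95 to 6.4) and 5.67% in EC3 (2.86 to 9.92) after thinning. The osteoclast-like interval (0.514 to 7.07) covers both. By CPM, EC2 at 23.7 (20.4 to 27.3) and EC3 at 23.4 (17.1 to 31.2) stood above these osteoclast-like cells at 7.1 (4.13 to 11.4).

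Single clusters show the range of these shares. MG4 had a *Cxcl12* UMI in 96% of its cells at E17.5 (92.3 to 98.3), and in 75.2% after thinning. EC4 had a *Cxcl14* UMI in 93% and 97.3% of its cells, and in 81.5% and 87.8% after thinning. Mature osteoblasts, OG4, gave 8.42% and 20.5% for *Cxcl12*, thinned 5.11% and 2.85%, at median depths of 7351 and 19349. Their *Cxcl14* shares were 10% and 26.6%, thinned 3.98% at both stages. The intervals of these thinned OG4 shares overlap those of the osteoclast-like cells, and they are read as background.

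For *Ccl2*, *Ccl7*, *Cxcr4* and *Ackr3* the reference was the chondrocyte-like unlabelled cells (median depths 12047 and 11103). *Ccl2* UMIs occurred in 4.42% and 13.3% of labelled cells, thinned 1.39% and 3.37%, against 2.05% and 11.7% of chondrocyte-like cells, thinned 0.257% and 4.26%. At E17.5 the labelled *Ccl2* share was thus no higher than in cells taken to lack the gene, so that detection alone does not set labelled cells apart from background, and neuron-like cells of that library (median depth 12092) had a UMI in 15 of 97, thinned 5.15%. In OG3, the cluster that led for *Ccl2*, the share was 17.9% and 16.6%, thinned 6.02% and 5.07%, so it stood above background at E15.5 and at its level at E17.5. *Ccl7* UMIs occurred in 13% and 18.8% of labelled cells, thinned 4.58% and 5.93%, against 2.56% and 10.1%, thinned 0.642% and 3.19%, in chondrocyte-like cells. EC2 had *Ccl7* in 25.1% and 41% of cells, thinned 9.6% and 13.5%. *Cxcr4* was found in 1.12% and 0.835% of labelled cells, thinned 0.425% and 0.22%, against 1 of 782 and 1 of 188 chondrocyte-like cells and 0 of either after thinning. *Ackr3* was found in 23.9% and 25.6% of labelled cells, thinned 9.47% and 8.33%, against 5.63% and 6.91%, thinned 1.41% and 1.6%. *Ackr3* in EC2 reached 42.4% and 56.4%, thinned 15.7% and 21.7%. For *Ccl11* the myeloid-like cells (median depths 8798 and 9303) gave 1.27% and 1.04%, thinned 0.263% and 0.347%, against 10.8% and 5.78% of labelled cells, thinned 4.02% and 2.23%. The *Ccl11* share of EC2 was 28.9% and 40.8%, thinned 12.1% and 17.1%, well over that background.

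The second comparison set unlabelled against labelled cells of the same library, to see which of the genes belong to cells outside the mesenchymal and osteogenic clusters. *Ccl2* was 12.4 times (11 to 14) higher in unlabelled cells at E15.5 and 19.3 times (18.2 to 20.6) higher at E17.5, at 81 against 6.54 CPM and 246 against 12.8. *Cxcr4* was 3.62 times (2.69 to 4.92) and 7.49 times (5.49 to 10.3) higher. These 2 of the 8 genes were at least 2-fold higher in both libraries, where 7.81% of 13218 genes were. *Ccl7* missed the limit at E15.5 with 1.98 times (1.83 to 2.16) and had 6.79 times at E17.5, and *Cxcl1* had 1.8 and 6.38 times. Without the cells of high doublet score *Ccl7* joined them.

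Lower in unlabelled cells by at least 2-fold in both libraries were 3 of the 8, where 4.00% of genes were. *Cxcl12* had 0.211 and 0.458 times the labelled level, *Cxcl14* 0.141 and 0.312 times, and *Ackr3* 0.272 and 0.343 times. *Ccl11* changed sides, from 0.482 times (0.419 to 0.554) at E15.5 to 2.25 times (2.02 to 2.51) at E17.5. The median over all genes was 1.03 and 1.09. At E17.5 the suffixes differed for *Ccl11*, with 0.612, 4.53 and 2.32 times in suffixes 1, 2 and 3, and were closer for *Ccl2*, with 20.1, 22.7 and 16.5 times.

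The unlabelled cells were clustered in each library and named only where marker lists allowed. For *Ccl2* the myeloid-like cells (393 in the first and 577 in the later library) stood at 525 CPM (502 to 548) and 1042 (1017 to 1069) and held 78% and 88% of the unlabelled UMIs. A *Ccl2* UMI was found in 62.6% and 77.5% of them, or 48.4% and 63.3% after thinning. Pericyte-like cells (192 and 174) came second with 172 and 179 CPM. *Ccl7* was also led by the myeloid-like cells, with 230 CPM (215 to 246) and 681 (660 to 702), which held 66.9% and 86.5% of its unlabelled UMIs. The class was not uniform, since its clusters led by *Lyz2* or *H2-Ab1* (131 and 75 cells) had only 47.4 and 45.5 CPM of *Ccl7*, against 296 in the other at E15.5 and 563 to 934 in the others at E17.5. Pericyte-like cells had 92.1 and 61.1 CPM of *Ccl7*, and at E17.5 the 33 mast-like cells stood between, at 153 CPM, from 6 cells with a UMI and with a high doublet score in 15 of the 33. In unlabelled cells, 48.3% and 56.6% of those with a *Ccl2* UMI also had one of *Ccl7*, against 5.14% and 16.8% of those without. After thinning these were 37.5% and 51.6% against 2.25% and 7.18%, so the neighbouring genes were detected in the same cells.

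*Ccl11* in unlabelled cells was highest in the pericyte-like ones. They had 68.5 CPM (58.1 to 80.2) at E15.5 and 203 (185 to 222) at E17.5 and held 57.5% and 82.2% of its unlabelled UMIs, while myeloid-like cells had 1.6 and 1.01 CPM. Next came an unnamed E15.5 cluster of 84 cells at 41.3 CPM (30.9 to 54.2) and an unnamed E17.5 cluster of 92 cells at 44.1 (31.5 to 60.1). *Cxcl1* was spread more widely. Pericyte-like cells had 213 CPM (195 to 233) and 239 (219 to 260), myeloid-like cells 144 (132 to 156) and 67.8 (61.3 to 74.8), and chondrocyte-like cells 58.3 (53.7 to 63.3) and 111 (97.6 to 126). The 32 glia-like cells at E17.5, 15 of them with a high doublet score, had 218 CPM (171 to 274) of *Cxcl1*. Pericyte-like cells were thus above labelled cells for *Cxcl1*, *Ccl2*, *Ccl7* and *Ccl11* in both libraries, and they also had *Cxcl12* at 100 CPM (87.4 to 114) and 146 (130 to 162). Other *Cxcl12* carriers were the same glia-like cells at 203 CPM (157 to 257) and an unnamed E17.5 cluster of 92 cells led by *Aldh1a2*, *Fmo1* and *Ntrk2* at 335 (299 to 375). At E15.5 an unnamed cluster of 84 cells led by *Ly6a*, *Dpt* and *Dpp4* had 111 CPM (92.9 to 130). The fibroblast-like E15.5 cells had 98.8 CPM, and 122 of these 199 cells had a high doublet score.

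*Cxcr4* was found in several unlabelled kinds of cell. Myeloid-like cells had 13.3 CPM (9.88 to 17.6) and 6.43 (4.55 to 8.82), and osteoclast-like cells (197 and 121) had 10 (6.95 to 14) and, from 42 UMIs, 12.6 to 23.7. The E17.5 myeloid-like clusters ranged from 0.613 CPM, from 1 UMI in 172 cells, to 12.6 CPM. Endothelial-like cells (46 and 119) had 7.48 CPM (2.04 to 19.1) and 27 (19.4 to 36.4). The E17.5 value of the osteoclast-like cells was 5.28 CPM when the cells were clustered at resolution 2, so it depends on where that cluster ends. Chondrocyte-like cells had 0.101 CPM (0.00256 to 0.562) and 0.459 (0.0116 to 2.56), and neuron-like cells 0 of 97, which allows up to 1.88 CPM. An unnamed E15.5 cluster of 74 cells led by *Stmn2*, *Cpne5* and *Inhba* held 43 of the 151 unlabelled *Cxcr4* UMIs, at 52.6 CPM (38 to 70.8), with a high doublet score in 22 of its cells. *Ackr3* in unlabelled cells was highest in an unnamed E15.5 cluster of 84 cells led by *Ly6a*, *Dpt* and *Dpp4*, at 54.1 CPM (42 to 68.5). Among named groups it was highest in the endothelial-like cells at E17.5, at 30.8 CPM (22.7 to 40.9), so that this group had both receptors.

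**Figure D3:**
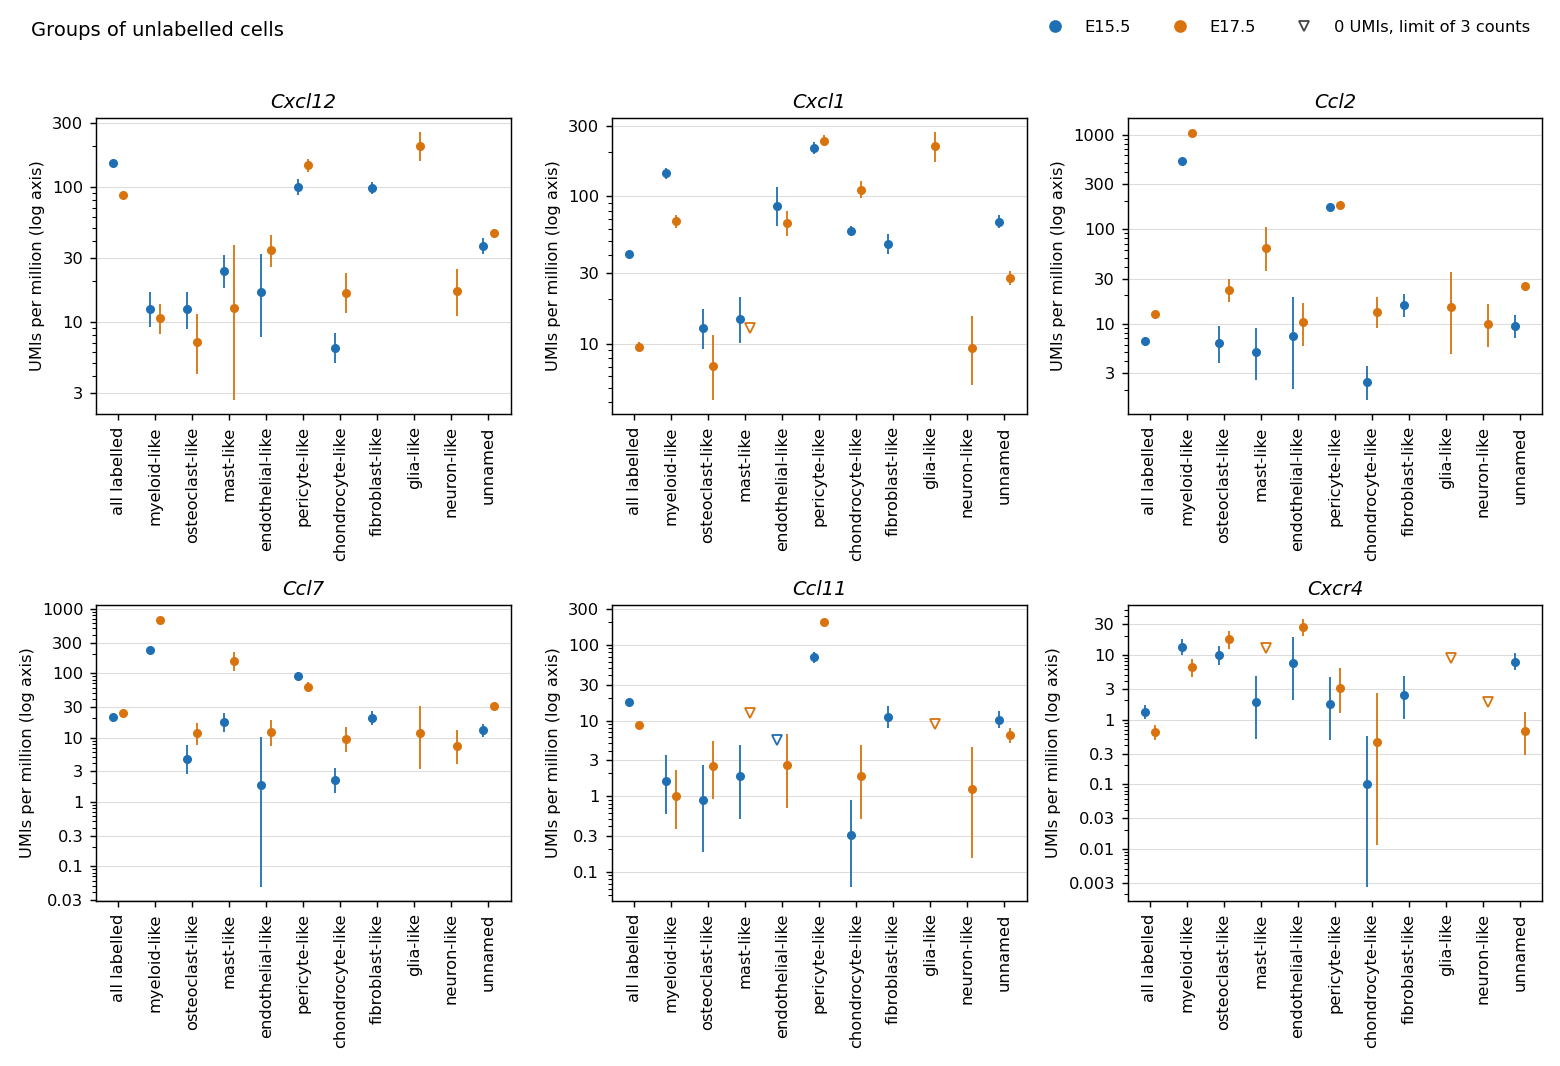
Levels of 6 of the genes in all labelled cells and in groups of unlabelled cells named from marker lists (horizontal axis), in UMIs per 1000000 UMIs on a log axis, with blue points for E15.5, orange points for E17.5, bars for exact Poisson 95% intervals and open triangles for 0 UMIs at the limit of 3 counts. *Ccl2* and *Ccl7* are highest in myeloid-like cells (525 and 1042, 230 and 681 CPM), and *Ccl11* in pericyte-like cells (68.5 and 203 CPM).

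Since labelled cells carry some RNA of the myeloid-like cells, the marker level of those cells was set beside *Ccl2* and *Ccl7*. The 8 myeloid markers, none of them at 0, summed in labelled cells to 46.1 CPM at E15.5 and to 133 CPM at the later stage, against 9863 and 17214 in myeloid-like cells, or 0.468% and 0.772%. Their most abundant gene over all cells was *Fcer1g*, at 10.5 and 26.9 CPM in labelled cells. For *Ccl2* the labelled level was 1.25% and 1.22% of the myeloid-like one. At the marker share it would have been 2.45 and 8.05 CPM, and 6.54 and 12.8 were measured. *Ccl7* in labelled cells was at 9.08% and 3.54% of the myeloid-like level. The ratio of *Ccl2* to markers was thus nearer to that of myeloid-like cells at E17.5 than at E15.5, and OG3 had the highest cluster values, at 5.3% and 2.06%. Above the marker share were 14 and 12 of the 15 clusters for *Ccl2* and 15 and 15 for *Ccl7*. How much of the labelled level came from RNA of other cells was not tested.

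Both receptors and their ligand were also read in the same cells. Of labelled cells with a *Cxcr4* UMI, 35% (23.1 to 48.4) at E15.5 and 52.6% (39 to 66) at E17.5 had *Ackr3*, against 23.8% and 25.4% of cells without. The cells with *Cxcr4* were deeper, at medians of 9716 against 8497 and 15125 against 12278 UMIs. After thinning, 3 of 22 and 2 of 15 cells with *Cxcr4* had *Ackr3*, or 13.6% and 13.3% against 9.45% and 8.32%, a difference that cannot be detected at this depth. *Cxcl12* was found in 58.4% and 38.6% of labelled cells with *Ackr3* and in 52.1% and 39.6% of those without. Thinned, these were 28.8% and 17.4% against 31% and 18.8%, so ligand RNA was not found more often in cells with the uptake receptor.

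The third comparison set the E17.5 library against the E15.5 library in all labelled cells. Its ratios carry the change of stage together with that of enzyme, sorting and embryos. RNA of markers of other cell types in labelled cells differed too. Summed markers went from 10907 to 547 CPM for erythroid cells, 502 to 183 for chondrocytes, 98.7 to 28.8 for mast cells and 62.7 to 6.46 for muscle. The chondrocyte sum was highest in MG1 and MG2, at 1684 and 1091 CPM at E15.5. The paper reports *Col2a1* and *Acan* in MG1, below the level of chondrocytes, so part of this sum may be the clusters' own RNA. Myeloid markers went up, from 46.1 to 133 CPM. The part of this RNA in the ratios was not tested. *Cxcl1* went from 40.5 CPM (38.7 to 42.3) to 9.5 (8.89 to 10.2), 0.235 times (0.216 to 0.254). *Ccl11* went from 17.8 to 8.69 CPM, 0.487 times (0.442 to 0.537), and *Cxcr4* from 1.34 to 0.648, 0.485 times (0.335 to 0.699). These 3 of the 8 were lower at E17.5 by at least 2-fold, where 9.88% of the 12150 genes were, and 0 were higher, where 4.88% were. *Cxcl12* at 150 and 87.5 CPM had 0.583 times (0.565 to 0.602) and *Cxcl14* at 358 and 208 CPM 0.581 times (0.569 to 0.593). *Ackr3* at 35.1 and 29.6 CPM had 0.842 times, *Ccl7* 1.15 times and *Ccl2* 1.95 times (1.72 to 2.21). The median of all genes tested was 1. With every cluster weighted the same, an alternative chosen after seeing the data, only *Cxcl1* stayed past the limit, at 0.374 times. *Cxcr4* had 0.544 times under this weighting, close to its reported ratio, and *Ccl11* 0.886 times. *Cxcl12* then had 0.968 times, a mean raised by MG3 and MG4, since 11 of 15 clusters were lower and the median of their ratios was 0.64, and *Ackr3* turned from lower to higher, at 1.26 times.

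Within clusters, *Cxcl1* was lower at E17.5 in 13 of 15 and at least 2-fold lower in 10, from 0.151 times (0.0935 to 0.234) in EC1 to 1.32 times (0.657 to 3.01) in OG4. In unlabelled cells as a whole *Cxcl1* had 72.8 and 60.6 CPM, or 0.833 times (0.782 to 0.887). This sum joins opposite moves, from 144 to 67.8 CPM in myeloid-like and from 58.3 to 111 in chondrocyte-like cells, and the latter were 782 cells at E15.5 but 188 at E17.5. *Cxcl12* and *Cxcl14* moved in a divided way. *Cxcl12* had 0.069 times (0.0389 to 0.116) its E15.5 level in PO2, 0.133 times in PO1, 0.146 times in OG2 and 0.237 times in LIG, against 1.33 times in MG2, 1.94 times (1.72 to 2.2) in MG3 and 2.72 times (2.33 to 3.19) in MG4. *Cxcl14* had 0.171 times in PO2, 0.172 times in OG2, 0.194 times in PO1 and 0.454 times in LIG, while EC4 with 1.08 times and EC3 with 1.06 times changed little. In the meninges MG1 was lower in both ligands, at 0.668 times (0.546 to 0.826) for *Cxcl12* and 0.777 times for *Cxcl14*. The proliferating cells and OG2 thus stood much lower in both ligands in the E17.5 library, and MG2 to MG4 did not. Other RNA under these labels differed too. Summed neuron markers, *Stmn2* among them, went from 671 to 22.6 CPM in OG2, 385 to 20.8 in PO1 and 401 to 13.6 in PO2. At E15.5 *Stmn2* held 668 of the 671 CPM in OG2 and 108 of 110 CPM in all labelled cells. *Tubb3* of the same list went the other way, at 9.9 times its E15.5 level in all labelled cells. The E15.5 sum thus mostly reads *Stmn2*, and whether it is RNA of neurons was not tested. Summed osteoblast markers went from 139 to 512 CPM in OG2, 76.4 to 746 in PO1 and 74.4 to 419 in PO2. Their part in the lower ligand levels was not tested.

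*Ccl11* was higher at E17.5 in EC2, at 1.58 times (1.39 to 1.79), and in EC3, at 1.71 times (1.24 to 2.33), where suffix 1 gave 73.6 CPM and suffixes 2 and 3 gave 18.9 and 16.2 against 16 at E15.5. It was at least 2-fold lower in 9 of 14 clusters with a ratio, among them OG2 at 0.0812 times (0.0333 to 0.172). Of the labelled cells, EC2 made up 17.3% at E15.5 but 8.9% at E17.5. By suffix the E17.5 level over all labelled cells was 22.3, 6.19 and 5.72 CPM, and EC2 made up 14%, 7.73% and 7.82% of the labelled cells. Suffix 1 alone thus stands above the E15.5 level, and the lower *Ccl11* of the whole library rests on suffixes 2 and 3. The same suffix was higher in *Ackr3* (42.4 CPM against 27.1 and 26.8), *Ccl7* (38.2 against 20.8 and 21.8) and *Ccl2* (18.5 against 11.3 and 11.9). For *Ackr3*, suffix 1 stood above the E15.5 level of 35.1 CPM and the other suffixes below it. *Cxcr4* by suffix was 1.35 CPM (0.834 to 2.06), 0.402 and 0.605, so that suffix 1 was at the E15.5 level of 1.34 and the lower value of the library rests on the other suffixes. *Cxcl12* was alike in all 3, at 88.7, 85.6 and 88.7 CPM, and *Cxcl1* at 10.2, 8.38 and 10.3 CPM was well under its E15.5 level in each.

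*Ccl2* was higher at E17.5 in 13 of 15 clusters, from 5.29 times (1.75 to 26.1) in OG4 to 0.773 times (0.545 to 1.13) in OG3, and the myeloid markers in labelled cells moved with it from 46.1 to 133 CPM. Their part in this was not tested. *Ackr3* had its largest ratios in OG3, at 7.03 times (2.72 to 26), and EC4, at 2.76 times (2.24 to 3.41), and its lowest in MG1, at 0.357 times (0.152 to 1.02). *Cxcr4* in OG1 had 0.0965 times (0.0288 to 0.293), from 10 and 6 UMIs.

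Genes known to respond to NF-kB or to tissue dissociation were read beside *Cxcl1*. Of 12 NF-kB response genes, all tested, 3 were at least 2-fold lower at E17.5 and 1 was higher, where 9.88% and 4.88% of all genes were, and 8 stayed inside the limit. *Il6* had 0.0939 times its E15.5 level, *Nfkbiz* 0.253 times, *Nfkbia* 0.338 times and *Tnfaip2* 2.63 times. The summed level of the 12 fell from 392 to 180 CPM in labelled cells and from 660 to 582 in unlabelled cells, and most of the labelled fall was that of *Nfkbia*, from 244 to 82.6 CPM. Of 18 dissociation response genes, 10 were at least 2-fold lower and 0 higher. Their sum went from 5566 to 2790 CPM in labelled and from 9402 to 6528 in unlabelled cells. The most abundant were *Fos* at 1390 and 802 CPM, *Jun* at 926 and 188, *Junb* at 487 and 308 and *Jund* at 226 and 451. The part of dissociation in the lower *Cxcl1* was not tested.

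Of 32 other chemokine ligands, 31 were in both gene lists and 9 had enough UMIs in labelled cells. Counted pairs, 6 in all, were found for 2 of these: *Cxcl10* in EC3 and OG3, and *Cxcl16* in all 4 meningeal clusters, with its top in MG3 at 27.5 and 43.1 CPM. Over all genes 1.88% of the gene and cluster pairs were counted, and the share of genes with a counted pair was not computed. Between libraries 2 of the 9 were higher and 1 was lower, where 4.88% and 9.88% of all genes were. Against unlabelled cells 14 could be compared, and 11 were at least 2-fold higher there in both libraries, where 7.81% of all genes were. *Pf4* had 422 and 1578 CPM in unlabelled against 12 and 42.9 in labelled cells, *Cxcl2* 385 and 277 against 6.3 and 8.22, *Ccl9* 123 and 132 against 2.82 and 3.77, and *Ccl4* 89.9 and 123 against 1.38 and 4.1. *Ccl2* was thus on the side of most of these ligands, and *Cxcl12* and *Cxcl14* were on the other. Of 23 other chemokine receptors only *Ackr1*, a scavenger of inflammatory chemokines, had enough UMIs in labelled cells. Its counted cluster was EC2, at 4.34 and 5.28 CPM, the cluster of *Ackr3*. Higher in unlabelled cells were 5 of the 6 receptors that could be compared, with *Cx3cr1* at 46 and 117 CPM and *Ccr2*, the receptor of Ccl2 and Ccl7, at 18.5 and 17.3 against 0.453 and 0.227 in labelled cells.

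Of 16 genes that act on Cxcl12 or under its receptors, 15 were tested in labelled cells. *Dpp4*, a peptidase that cuts and inactivates Cxcl12, was the only one with counted pairs, in EC2 and EC3, at 240 and 221 CPM in EC2. The 1.88% over all genes is a share of gene and cluster pairs and not of genes. Over all labelled cells *Dpp4* had 120 CPM at E15.5 and 25.1 at E17.5. It was 1 of 4 that were at least 2-fold lower at E17.5, with *Grk5*, *Rgs16* and *Vcam1*, while *Cd74* and *Grk6* were higher, beside 9.88% and 4.88% of all genes. The most abundant of the list were *Mif*, at 455 and 667 CPM, *Gnai2*, at 347 and 273, *Mmp2*, at 268 and 307, and *Gnai3*, at 104 and 82.3. Against unlabelled cells, 4 of the 16 were higher there and 2 lower in both libraries, beside 7.81% and 4.00% of all genes. EC2, the cluster with the most *Ackr3* at E15.5, was thus also the one with the most *Dpp4* at both stages.

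To place each pattern among other genes, Pearson's r of log2(CPM + 5) was computed over the 15 clusters of each library with 9863 genes, and the lower of both values ranked them. The points share a library and its depth, and r is given as a description at E15.5 and at E17.5. Most like *Cxcl12* were *Adamts1* (0.86 and 0.89), *Vcan* (0.86 and 0.93) and *Tcaf1* (0.84 and 0.88). Most like *Cxcl14* were *Gdnf* (0.88 and 0.88), *Cpxm2* (0.86 and 0.84) and *Tnmd* (0.82 and 0.85). For *Cxcl1* they were *S100a13* (0.84 and 0.79), *Lpar4* (0.78 and 0.80) and *Ptgs1* (0.82 and 0.78). *Vcan* peaked in MG3 and then in MG4, *Tcaf1* in MG4 at both stages and *Adamts1* in MG2 and then in MG3. *Gdnf* peaked in EC4 and then in LIG, *Cpxm2* in PO2 and then in LIG, and *Tnmd* in LIG and then in MG1. *Lpar4* peaked in EC3 and *S100a13* and *Ptgs1* in EC2 at both stages. These peaks were often not the top cluster of the ligand, and *Gdnf* was low, at 13.9 and 6.45 CPM in EC4.

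*Ccl11* had the closest partners of all, *Npepl1* (0.92 and 0.91), *Dpt* (0.89 and 0.91) and *Plekho2* (0.89 and 0.97). For *Ackr3* they were *Arhgap20* (0.86 and 0.81), *Miat* (0.78 and 0.79) and *Nov* (0.79 and 0.78). *Ccl2* was most like *Diaph1* (0.70 and 0.66), its neighbour *Ccl7* (0.65 and 0.69) and *Pole* (0.61 and 0.61). In turn *Ccl7* was most like *Rhog* (0.67 and 0.72), *Ccl2* and *Csf1* (0.68 and 0.64). *Cxcr4* gave *Spg21* (0.69 and 0.67), *Dnajc13* (0.67 and 0.73) and *Rgmb* (0.61 and 0.69), but its own levels at both stages correlated at 0.09, so this list carries little. The others held their order better between libraries, from 0.66 for *Ackr3* to 0.82 for *Cxcl14*. By Spearman's rho the lists shared 0, 1 or 2 of their 3 genes with those above. *Cxcl12* did not follow its receptors: r was 0.07 and 0.23 with *Ackr3* and -0.10 and 0.25 with *Cxcr4*.

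Promoter sequences, 250 bases before to 50 after the gene start, were taken from RefSeq (GRCm38.p6) and found for 5 of the 8 genes, *Cxcl12*, *Cxcl14*, *Cxcl1*, *Cxcr4* and *Ackr3*, and not matched for *Ccl2*, *Ccl7* and *Ccl11*. Both strands were searched for the kB motif of NF-kB, the AP-1 motif, the STAT motif, the HIF motif ACGTG, the GC box GGGCGG and the TATA box TATAAA. Of 32851 mouse promoters of this length, 8.46% held the kB motif, 7.81% AP-1, 8.3% STAT, 19.6% HIF, 35.7% a GC box and 13.6% a TATA box. The promoter of *Cxcl1* is printed as that of the ligand with the lowest E17.5 to E15.5 ratio in labelled cells, and that of *Cxcl12* beside it as the ligand of both receptors. In *Cxcl1* (chr5:90890995-90891294, plus strand, 58.7% G and C) the capitals mark 2 overlapping kB matches, on positions 180 and 181 of the printed run, and it also held 1 HIF match. In *Cxcl12* (chr6:117168285-117168584, plus strand, 64.7% G and C) the capitals mark 5 GC boxes, the last of which overlap, and no other motif was matched. The median of all promoters was 52.7%.
Cxcl1: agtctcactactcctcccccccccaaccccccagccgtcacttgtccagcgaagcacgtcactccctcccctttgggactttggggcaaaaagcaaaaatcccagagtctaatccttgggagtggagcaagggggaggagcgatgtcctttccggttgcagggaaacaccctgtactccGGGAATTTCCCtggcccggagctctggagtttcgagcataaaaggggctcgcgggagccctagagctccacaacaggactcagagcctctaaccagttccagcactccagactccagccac
Cxcl12: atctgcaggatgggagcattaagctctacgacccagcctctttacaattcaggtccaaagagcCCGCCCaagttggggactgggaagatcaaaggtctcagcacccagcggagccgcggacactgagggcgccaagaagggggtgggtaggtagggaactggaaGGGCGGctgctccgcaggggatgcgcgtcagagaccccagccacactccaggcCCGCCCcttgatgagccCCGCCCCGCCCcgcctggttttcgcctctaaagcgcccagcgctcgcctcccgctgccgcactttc

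*Cxcl14* held 3 GC boxes and 1 STAT match, *Cxcr4* 3 GC boxes and 2 overlapping TATA matches, and *Ackr3* 1 GC box and 1 TATA match. Of the 5 promoters only that of *Cxcl1* had the kB motif. A match describes letters in this window and not a bound site.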

How the data were processed

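The authors made UMI count matrices with Cell Ranger (an earlier version in the paper, 3.1.0 in the header of the deposited E15.5 matrix) and cluster labels with Seurat 3.2.0. The deposited values are UMI counts, in which the E17.5 labelled cells have the UMI totals of the authors' table (6830 of 6830) and the E15.5 ones do not (0 equal, table median 11507, 5 of 5340 cells missing), so E15.5 labels were joined by barcode to counts with other totals. Cells without a label were kept with at least 1000 UMIs, 1000 genes, at most 7.5% mitochondrial and at most 3% of Hbb and, apart, of Hba UMIs; 93 labelled E15.5 cells outside these limits were kept. Python 3.11.15, numpy 2.4.6 and scipy 1.17.1 gave sums, CPM and intervals. The unlabelled cells were clustered per library (Leiden, igraph 0.11.9, scanpy 1.11.5, without chemokine and chemokine receptor genes) and named from marker lists. Scrublet, run through scanpy, scored doublets: its own calls took 4.92% of the E15.5 cells and 0.327, 0.861 and 0.248% in the E17.5 suffixes, so the 94th percentile was used instead, which marked 3.82 and 4.98% of labelled and 10.1 and 12.6% of unlabelled cells. These cells stayed in unless stated. Calculations were tested on simulated data.

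The 8 genes and all lists were chosen with earlier results of these data known. Named were these genes, the 3 genes most like each, and of each list at most 4 with the most UMIs and those past the 2-fold limit; list genes 2-fold apart between libraries, such as *Il6* or *Grk5*, *Actc1* and the unnamed clusters were named after their values were seen. Alternatives covered totals, the fold limit, the UMI minimum, depth, doublets, small clusters, suffixes and clustering settings.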

Additional observations from a re-analysis of the deposited data

Results flagged for a closer look

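Unlabelled barcodes that failed the limits on depth, genes or mitochondrial and haemoglobin RNA took no part in the comparisons, yet held 2 of the genes at 2 times their level in labelled cells or more in at least 1 library. *Ccl2* stood at 15.7 CPM in the 7174 such barcodes of the E15.5 library, 2.4 times (2.09 to 2.76) the labelled 6.54, and at 25.7 CPM in the 559 of the E17.5 library, 2.02 times (1.62 to 2.48) the labelled 12.8. *Cxcr4* stood at 2.12 CPM in the latter, from 8 UMIs, 3.27 times (1.35 to 6.87) the labelled 0.648, and was not higher in those of the E15.5 library, at 0.812 times (0.531 to 1.23). *Cxcl1* was above its labelled level at E17.5 by less, 1.62 times (1.22 to 2.11). The differences were not tested.

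*Cxcr4* in MG3 pointed in opposite directions at the 2 stages, with 0.371 times (0.00924 to 2.14) the level of the remaining labelled cells at E15.5, from 1 UMI, and 3.17 times (0.835 to 8.58) at E17.5, from 4 UMIs. Both intervals cover 1, and the difference was not tested.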

How the results depend on the processing

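Of 36 recounts under other settings, 28 stayed within 1.5 times the reported count. The 7 gene and cluster pairs became 13 at a fold limit of 1.5 and 2 at a limit of 3 (*Cxcl14* in EC4, *Ccl11* in EC2), which follows from the limit. The 2 genes higher in unlabelled cells became 4 with the mean of each cell's CPM and 4 at a limit of 1.5, both adding *Cxcl1* and *Ccl7*, and 1 with E17.5 suffix 1 alone, where *Cxcr4* fell under the minimum of 50 UMIs. Of 27 recounts of the E17.5 folds of these pairs, by suffix or without cells of high doublet score, 14 stayed inside the reported interval and 13 did not. The 3 genes apart between libraries became 6 at a limit of 1.5, 1 at a limit of 3 and 1 with each cluster weighted the same, an alternative chosen after seeing the data, under which *Cxcl12* went from 0.583 to 0.968 times and *Ackr3* from 0.842 to 1.26 times. The cause of the change with the mean of each cell's CPM was not tested. Membership changed under equal counts too: *Ccl2* took the place of *Ccl11* among the genes apart between libraries when the top 50, mitochondrial and ribosomal genes left the totals. *Cxcr4*, with 65 and 60 labelled UMIs, sets the limit of depth. By suffix, 19 of 20 folds of counted pairs were at least 2; MG1 has no cells in suffix 1, so that fold has no value. Thinning lowered all 16 labelled shares, by 1.47 to 3.95 times. Of 240 unlabelled group levels, 217 stayed inside their intervals under other clustering settings; levels of at least 20 CPM ranged from 0.376 to 2.96 times the reported ones. By Spearman's rho all 8 lists of like genes changed. The *Ccl11* results changed direction in suffix 1, where unlabelled cells had 0.612 times the labelled level against 2.25 times in the whole library, and where the labelled level of 22.3 CPM stood above the E15.5 level of 17.8 instead of below it. Labelled *Ackr3* changed direction in suffix 1 too, at 42.4 CPM against 35.1 at E15.5.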
